A study of Mus musculus with 6 samples.

Results

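Synovium, the tissue that lines the knee joint, was compared between 2 arthritic pools of mice in which Notch3 had not been targeted: the pool given an isotype control antibody and the wild-type pool. All cells of these 2 libraries with at most 10% mitochondrial transcripts were taken. After 14 cells marked as doublets were left out, 5422 cells remained, 3037 from the isotype library and 2385 from the wild-type library, of 17898 cells in 6 libraries. Arthritis was brought on in every arthritic pool by serum transfer from K/BxN mice, whose autoantibodies inflame the joints of the recipients. The isotype pool is the control of an anti-Notch3 antibody pool, the wild-type pool is the control of a Notch3-/- pool, and healthy wild-type and healthy Notch3-/- pools complete the series. Each library held dissociated knee synovium pooled from 10 mice, sorted for living cells without a gate for cell type, with 7000 cells loaded for droplet-based 3' sequencing. Transcripts are counted as unique molecular identifiers (UMIs), so that amplified copies of a molecule count once. The labels give no genotype for the isotype pool and no strain, sex or age for any pool. With 1 library per group there was no replicate and no test, and the 95% intervals below reflect the counting of molecules alone, not differences among mice, pools or days. The labels do not say whether the 2 pools were prepared together, so a batch and the group cannot be told apart.

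The isotype library held 21065113 UMIs and the wild-type library 12017317 before filtering, and the cells used had medians of 6334 and 4059 UMIs and of 2073 and 1435 genes. The share of mitochondrial UMIs had a median of 3.583% in isotype and 3.235% in wild-type cells, and 151 isotype and 56 wild-type barcodes were over 10%. The libraries shared 8 cell barcodes. Notch3, the receptor targeted elsewhere in the series, was at 3.30 CPM (2.56 to 4.19; UMIs scaled so that those of the summed cells have the usual CPM total) over all isotype cells and at 5.58 (4.32 to 7.1) over all wild-type cells. In mural cells, the contractile cells around small vessels, it was at 324 CPM (217 to 466) in the isotype library and 407 (274 to 581) in the wild-type library, from 23 and 12 cells. The 2 Notch3-/- libraries had 0.257 and 0.299 CPM over all cells.

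Type I interferons signal through the receptor Ifnar1 and Ifnar2 and the kinases Jak1 and Tyk2 to transcription factors that include Stat2 and Irf9. These bind a short element in the promoters of interferon-stimulated genes, whose products degrade viral RNA, tag proteins or carry the signal further. Ly6c-high monocytes enter inflamed joints from the blood and mature into macrophages beside resident macrophages of the tissue. Tendon and entheses meet the synovium at the joint margin, and their cells express Tnmd, Scx and Fmod, with Acan and Col11a1 in the fibrocartilage of the insertion.

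The core of the interferon-stimulated response element, GAAA, then any 2 bases, then GAAA, was searched on both strands of the 250 bases before each gene's start in the RefSeq promoter table of GRCm38.p6. It was present in 936 of 27025 promoters (3.46%), in 11 of the 26 matched promoters of a 35-gene type I interferon response list (42.3%) and in 11 of 20 matched promoters of a 25-gene type II list (55%). Of the type I members that were at least 2-fold lower in isotype fibroblasts, 6 of 10 matched promoters held it, against 4 of 14 for members less than 2-fold apart. In myeloid cells the same split gave 6 of 17 and 4 of 8, the other way round. A match describes letters only. Stretches of 4 of these promoters are given, whose genes were at least 2-fold lower in isotype fibroblasts, in isotype myeloid cells or in both. They are read 5′ to 3′ along the gene's own strand with the matches in capitals, and overlapping matches run together. A match on the opposite strand reads TTTC, any 2 bases, TTTC. Isg15, a ubiquitin-like modifier, lies on the minus strand (chr4:156200850-156200921). Ifit3, which takes part in binding of viral RNA, lies on the plus strand (chr19:34583348-34583441). Rsad2, the antiviral enzyme viperin, lies on the minus strand (chr12:26456538-26456597), and so does Bst2, the membrane tether tetherin (chr8:71537562-71537627).
Isg15: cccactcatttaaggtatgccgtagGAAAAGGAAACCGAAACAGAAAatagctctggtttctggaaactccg
Ifit3: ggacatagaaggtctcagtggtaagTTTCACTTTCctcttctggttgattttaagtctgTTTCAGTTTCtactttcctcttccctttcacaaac
Rsad2: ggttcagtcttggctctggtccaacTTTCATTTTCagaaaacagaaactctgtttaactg
Bst2: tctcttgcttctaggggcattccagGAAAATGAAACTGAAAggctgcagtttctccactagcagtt
The match nearest to the start of transcription ended 56 bases before it in Isg15, 112 in Ifit3, 110 in Rsad2 and 114 in Bst2.

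Fibroblast-like cells made up 68.6% of isotype cells (66.9 to 70.2) and 44.2% of wild-type cells (42.1 to 46.2). Myeloid-like cells made up 19.7% of isotype cells (18.3 to 21.1), against 42.4% of wild-type cells (40.4 to 44.4). Neutrophil-like cells were 9 of 3037 in the isotype library (0.296%, 0.136 to 0.562) and 87 of 2385 in the wild-type library (3.65%, 2.93 to 4.48). Those 3 pairs of intervals do not overlap. Endothelial-like cells were at 7.64% (6.72 to 8.64) of isotype and 5.70% (4.81 to 6.71) of wild-type cells, and T or NK-like cells at 2.01% (1.54 to 2.57) and 3.06% (2.41 to 3.83). For scale, the myeloid share was 38.1% in the arthritic anti-Notch3 library, 17.7% in the arthritic Notch3-/- library and 26.2% in the healthy wild-type library. The neutrophil share in these 3 was 0 of 2043 cells (up to 0.147%), 1.06% and 0.586%, so the wild-type pool stood above each of the other 5 libraries for both classes.

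**Figure D1:**
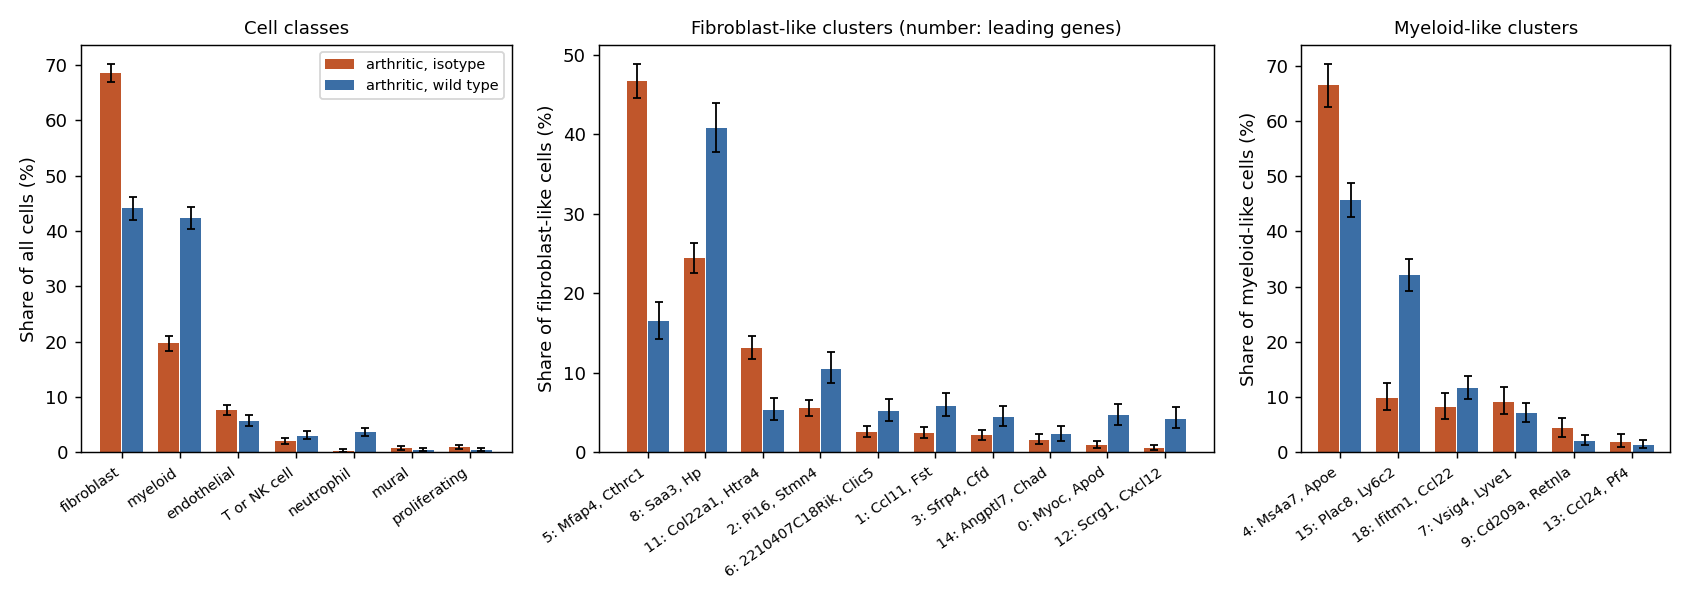
Shares of cells (%) in the isotype (left bar of each pair) and wild-type (right bar) libraries, by class, by fibroblast-like cluster and by myeloid-like cluster, with exact 95% counting intervals and 1 library per group. Cluster 5 holds 46.7% of isotype and 16.5% of wild-type fibroblasts, and cluster 15 holds 9.88% of isotype and 32.1% of wild-type myeloid cells.

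Within the fibroblasts, the largest cluster of the isotype library was led by Mfap4, Cthrc1, Postn and H19 (cluster 5), genes of matrix-laying wound fibroblasts. It held 46.7% of isotype fibroblasts (44.5 to 48.8) and 16.5% of wild-type fibroblasts (14.3 to 18.9). The largest of the wild-type library was led by Saa3, Hp and Cxcl5 (cluster 8), genes of the inflammatory response. It held 24.4% of isotype (22.6 to 26.3) and 40.8% of wild-type fibroblasts (37.8 to 43.9). Over all cells, cluster 8 was close in both, at 16.8% (15.4 to 18.1) of isotype and 18% (16.5 to 19.6) of wild-type cells. Cluster 5 was at 32% (30.3 to 33.7) and 7.3% (6.28 to 8.41) of all cells. A lining-like cluster led by Col22a1 and Htra4 (cluster 11) held 13.1% of isotype (11.7 to 14.6) and 5.32% of wild-type fibroblasts (4.04 to 6.85). Another lining-like cluster, led by Clic5 and Tspan15, went the other way, with 2.54% of isotype (1.91 to 3.32) and 5.22% of wild-type fibroblasts (3.96 to 6.74). The Pi16-led cluster was at 5.57% of isotype and 10.5% of wild-type, the Ccl11-led at 2.45% and 5.89%, the Sfrp4-led at 2.16% and 4.46%, the Myoc-led at 0.912% and 4.65%, and the Scrg1-led at 0.528% and 4.27%. Over all cells, the Clic5-led cluster was at 1.75% of isotype and 2.31% of wild-type cells and the Pi16-led at 3.82% and 4.65%. The Ccl11-led was at 1.68% and 2.6% of all cells and the Sfrp4-led at 1.48% and 1.97%. All of these pairs have overlapping intervals. The Myoc-led and Scrg1-led clusters stayed apart, at 0.626% and 2.05% and at 0.362% and 1.89%. Clusters 5, 8 and the Ms4a7-led macrophage cluster 4 were large in both libraries. They held 2, 5 and 21 of the 2633 cells of the arthritic Notch3-/- library and 1, 2 and 20 of the 2903 healthy wild-type cells, but 145, 32 and 431 of the 2043 cells of the anti-Notch3 library. A cluster that lies mostly in 1 library may be that library rather than a cell type.

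Levels were compared in sums of UMIs per library and class, as the log2 ratio of isotype over wild type with 0.5 UMI added, for genes with at least 50 UMIs over both libraries. In fibroblasts 650 of 10902 genes were at least 2-fold apart (5.96%), 298 higher and 352 lower in the isotype library. In myeloid cells 538 of 7091 were (7.59%), 265 higher and 273 lower, and in endothelial cells 196 of 4859 (4.03%), 121 higher and 75 lower. The median log2 ratio over all genes was 0.0887, 0.0967 and 0.0483 in these classes. Over whole libraries 1162 of 12108 genes were 2-fold apart (9.6%), with 743 of them lower in the isotype library (6.14%). The same count for the arthritic Notch3-/- over the wild-type library was 10.1% in fibroblasts, 12.2% in myeloid and 18% in endothelial cells. For the anti-Notch3 over the isotype library it was 8.1%, 5.56% and 11.5%. In myeloid cells, 2 arthritic pools without Notch3 targeting were therefore 2-fold apart at 7.59% of genes, against 5.56% for antibody over isotype. These comparisons share libraries and differ in cell numbers, so their counts stand side by side only.

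Interferon-stimulated genes were lower in the isotype library in fibroblasts and myeloid cells. In fibroblasts 15 of the 31 measured type I members were at least 2-fold lower and none higher, with a median log2 ratio of -0.999, where 3.23% of all fibroblast genes were 2-fold lower. In myeloid cells 22 of 33 were lower and none higher, with a median of -1.32, where 3.85% of all genes were lower. Endothelial cells showed less of this, with 2 of 20 lower and 1 higher and a median of -0.32, where 1.54% of all genes were lower and 2.49% higher. In T or NK cells 2 of 4 measured members were lower, where 5.58% of all genes were. Whether the classes differ in the size of the gap was not tested. The class sums mix clusters: isotype fibroblasts came mostly from clusters 5, 8 and 11 and wild-type fibroblasts from clusters 8, 5 and the Pi16-led cluster 2. Isotype myeloid cells came mostly from cluster 4, and wild-type myeloid cells from clusters 4 and 15.

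The genes that carry the interferon signal were among the lower ones. Irf7, the transcription factor that amplifies the response, was at 97.2 CPM in isotype and 539 in wild-type myeloid cells (log2 ratio -2.47, -2.68 to -2.27). In fibroblasts Irf7 was at 25.5 CPM in the isotype and 120 in the wild-type library (-2.23, -2.41 to -2.06), and in endothelial cells at 54.6 and 166 (-1.60, -2.07 to -1.15). Irf7 was thus lower in all 3 classes. Stat2 was at 18.7 CPM in isotype and 34.0 in wild-type myeloid cells (-0.85) and Irf9 at 35.2 and 56.2 (-0.67), short of 2-fold. Of 7 measured receptor and kinase genes upstream, none was 2-fold apart in fibroblasts (median -0.13), where 5.96% of all genes were. In myeloid cells 1 was, where 7.59% of all genes were. This was the receptor gene Ifnar1, at 36.1 CPM in isotype and 83.3 in wild-type cells (-1.20, -1.58 to -0.85).

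Among effectors, Isg15 was at 100.6 CPM in isotype and 451 in wild-type myeloid cells (log2 ratio -2.16, -2.37 to -1.96). In fibroblasts Isg15 was at 86.1 CPM in isotype and 286 in wild-type cells (-1.73, -1.83 to -1.63), and in endothelial cells at 108 and 167 (-0.62, -0.996 to -0.25). Its share of cells with a UMI, after thinning each cell to 2000 UMIs, was 12.3% of isotype and 31.7% of wild-type myeloid cells, 7.16% and 19.9% of fibroblasts, and 13.7% and 23% of endothelial cells. Without thinning these shares were 16.6% and 33.7%, 16% and 34.3%, and 23.7% and 42.6%. The same order stood in every class, thinned or not. Inside the macrophage cluster 4 the thinned shares were 6.51% of isotype and 16.2% of wild-type cells. Inside the monocyte-led cluster 15 they were close, at 51.1% and 50.2%, and without thinning at 50.8% and 60.6%.

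The Ifit and Oas families bind viral RNA or make the second messenger that activates its degradation. Ifit3 was at 12.3 CPM in isotype and 56.5 in wild-type myeloid cells (-2.18, -2.82 to -1.63), and at 12.8 and 40.1 in fibroblasts (-1.65, -1.91 to -1.38). Rsad2 was at 12.7 CPM in isotype and 80.3 in wild-type myeloid cells (-2.64, -3.26 to -2.11) but at 5.79 and 8.16 in fibroblasts (-0.50, -0.98 to 0.00). In endothelial cells Rsad2 was the 1 type I member that was higher in the isotype library, at 64.6 and 23.3 CPM (1.44, 0.71 to 2.31). Bst2 was at 246 CPM in isotype and 606 in wild-type fibroblasts (-1.30, -1.36 to -1.24), and at 367 and 651 in myeloid cells (-0.83, -0.95 to -0.71). Ifi27l2a, a small mitochondrial protein, was at 128 CPM in isotype and 568 in wild-type fibroblasts (-2.15, -2.22 to -2.07) and at 63.7 and 232 in endothelial cells (-1.86, -2.28 to -1.46). Ifitm3, which blocks entry of enveloped viruses, was at 1237 CPM in isotype and 3189 in wild-type myeloid cells (-1.37, -1.43 to -1.31).

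Ifi44 stood apart from the rest of the list. In myeloid cells it had 2 UMIs in the isotype and 277 in the wild-type library (0.849 and 90.5 CPM), with the other 4 libraries at 0 to 2.35 CPM. In fibroblasts Ifi44 was at 11.3 CPM in the isotype and 31.6 in the wild-type library, with the others at 0 to 5.31.

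**Figure D2:**
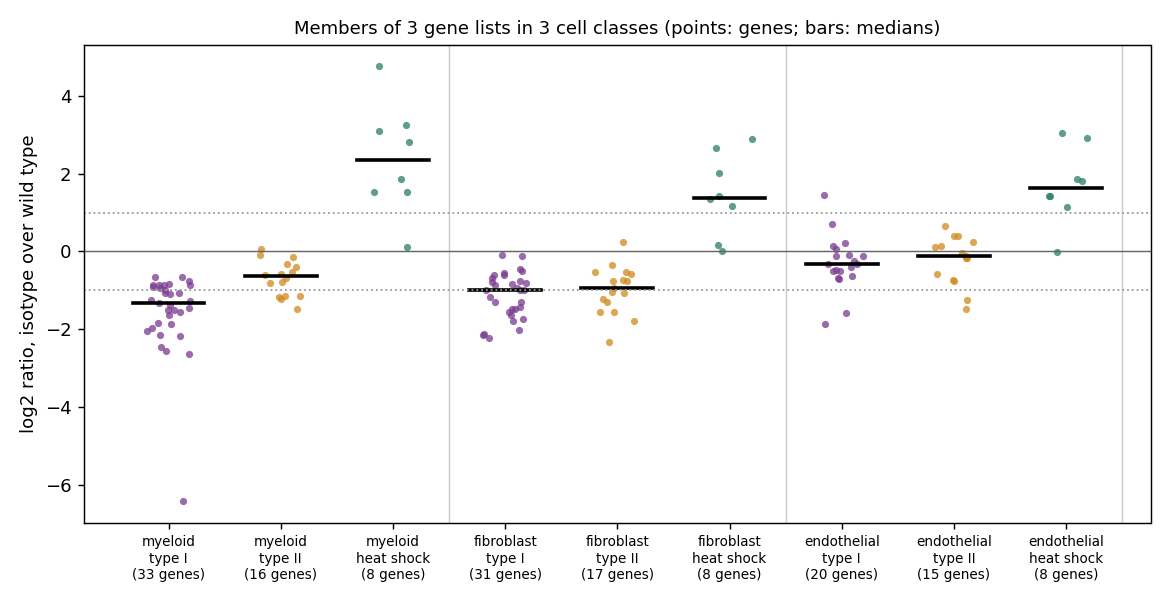
Log2 ratio of isotype over wild type (y axis) for each measured member of the type I interferon, type II interferon and heat-shock lists in 3 cell classes; points are genes, bars are medians and dotted lines mark 2-fold. The type I medians are -1.32 in myeloid cells, -0.999 in fibroblasts and -0.32 in endothelial cells, and the heat-shock medians are 2.35, 1.38 and 1.62.

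Type II interferon, made by T and NK cells, acts through Ifngr1 and Ifngr2 on an overlapping set of genes. In fibroblasts 8 of 17 measured type II members were at least 2-fold lower in the isotype library and none higher (median -0.94). Over all fibroblast genes 3.23% were 2-fold lower and 2.73% higher. Cxcl9, a chemokine for T cells, was at 6.77 CPM in isotype and 34.0 in wild-type fibroblasts (-2.33, -2.67 to -2.00). Irf1 was at 24.5 CPM in isotype and 72.1 in wild-type fibroblasts (-1.56, -1.75 to -1.37), yet at 28.0 and 26.8 CPM in myeloid cells (0.07, -0.43 to 0.55). Socs1, which dampens the signal, was at 21.5 CPM in isotype and 74.7 in wild-type fibroblasts (-1.80, -2.00 to -1.60). In myeloid cells 5 of 16 type II members were lower (median -0.64), where 3.85% of all genes were. In endothelial cells 2 of 15 were lower (median -0.12), where 1.54% of all genes were. Cxcl10 was at 50.9 CPM in isotype and 142 in wild-type endothelial cells. The antigen-processing genes Psmb8, Psmb9, Tap1 and Tapbp were less than 2-fold apart in myeloid cells, from -0.59 to -0.40. MHC class I genes, which present peptides to cytotoxic T cells, were lower in 2 of 8 in fibroblasts (median -0.83): H2-Q4 at 21.0 CPM in isotype and 49.5 in wild-type cells and H2-Q7 at 29.1 and 63.6.

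The interferon gap was also present inside some of the single clusters. In the Saa3-led cluster 8, 8 of 29 type I members were lower and none higher (median -0.60), where 2.56% of all genes were lower. In the Cthrc1-led cluster 5 the count was 16 of 22 (median -1.43; background 4.17%), in the lining-like cluster 11 it was 6 of 9 (-1.62; 4.81%) and in the Pi16-led cluster 2 it was 4 of 7 (-1.06; 2.64%). In the Ms4a7-led macrophages of cluster 4, 6 of 19 were lower (-0.94; 3.73%), in the monocyte-led cluster 15, 9 of 28 (-0.47; 6.8%) and in the Ccl22-led cluster 18, 9 of 18 (-1.01; 5.59%). None of these clusters had a higher member, where the share of all genes that was higher was 2.39% in cluster 8, 4.87% in cluster 5, 5.72% in cluster 11, 2.54% in cluster 2, 2.83% in cluster 4, 3.67% in cluster 15 and 2.87% in cluster 18. The Vsig4-led resident macrophages of cluster 7 had 0 of 3 on either side (median 0.24), where 3.02% of all genes were lower and 2.01% higher. The gap was small or missing in the smaller fibroblast clusters too: the type I list summed to 3175 CPM in isotype and 3108 in wild-type cells of the Ccl11-led cluster 1, to 2290 and 2900 in the Sfrp4-led cluster 3 and to 1064 and 1053 in the Clic5-led cluster 6, each with at most 3 measured members.

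Counted per cell at 2000 UMIs, type I transcripts had a median of 4 (10th to 90th percentile 1 to 21) in isotype and 16 (2 to 43) in wild-type myeloid cells. In fibroblasts the median was 4 (1 to 11) in isotype and 7 (2 to 20) in wild-type cells, and in endothelial cells 10 (5 to 18) and 13 (5.1 to 21). Without thinning the medians were 8 and 19, 12 and 20, and 19 and 32.5. Cells with fewer than 2000 UMIs were left out: 125 isotype and 356 wild-type myeloid cells, 59 and 66 fibroblasts, and 49 and 14 endothelial cells. Cluster 4 macrophages had a median of 3 in isotype and 11 in wild-type cells, against 22 and 26 in the monocyte-led cluster 15 and 5 and 4 in cluster 7. In cluster 4, 14% of the isotype and 5.05% of the wild-type cells held no type I transcript. These values rest on 292 isotype and 198 wild-type cells, since 105 and 264 were under 2000 UMIs, and without thinning the cluster 4 medians were 5 and 9. In fibroblast clusters 1, 3 and 6 the thinned medians were 6, 5 and 2 in isotype cells and 5, 4 and 1 in wild-type cells.

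**Figure D3:**
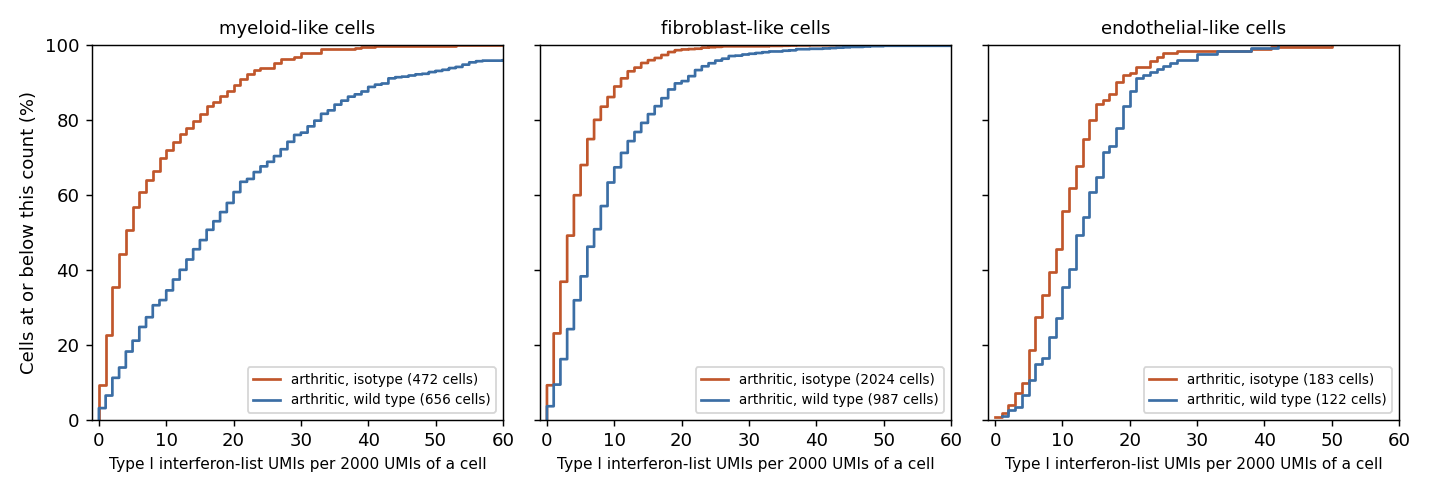
Cumulative share of cells (%) by the number of type I interferon-list UMIs per 2000 UMIs of a cell, for isotype and wild-type myeloid, fibroblast and endothelial cells; the x axis ends at 60, beyond which a small share of wild-type myeloid cells lies. The isotype curve lies left of the wild-type curve over most of the range in each class, with medians of 4 and 16 in myeloid cells.

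Set beside the other 4 libraries, it was the wild-type library that stood apart. The summed level of the type I list in fibroblasts was 2561 CPM in the isotype and 5355 in the wild-type library, with 2205 to 2659 in the other libraries, healthy ones included. In myeloid cells it was 3990 CPM in the isotype and 9490 in the wild-type library, and in endothelial cells 5345 and 7192, in each case with the wild-type library above the other 5. For the type II list this order held in myeloid cells only, at 985 and 1426 CPM with at most 1258 elsewhere. In fibroblasts and endothelial cells the isotype library was instead the lowest of all 6 for type II, at 438 and 1146 CPM.

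**Figure D4:**
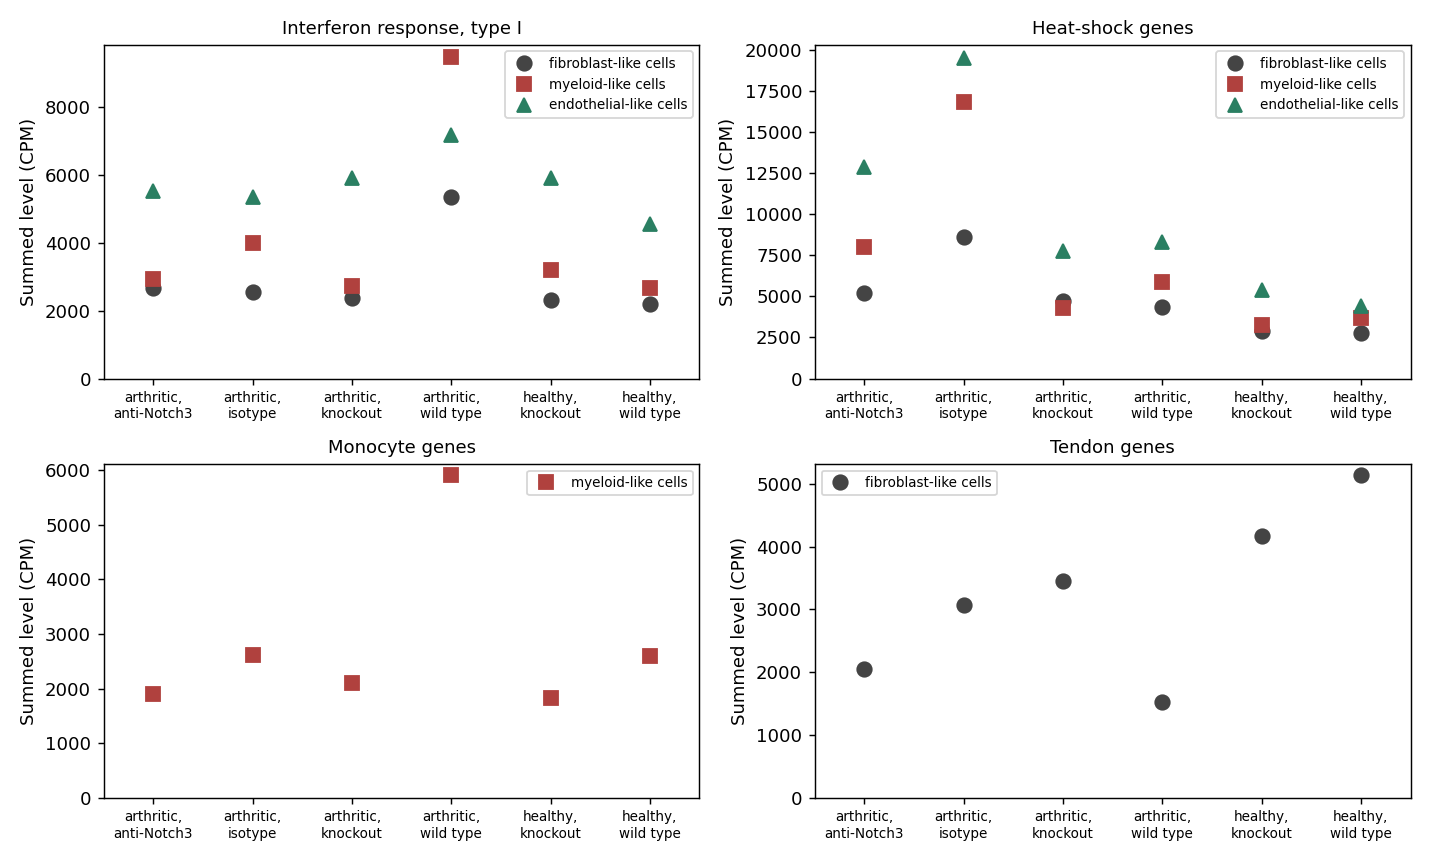
Summed level (CPM) of 4 gene lists in each of the 6 libraries, with 1 point per library and class: type I interferon and heat-shock lists in 3 classes, monocyte genes in myeloid cells and tendon genes in fibroblasts. The arthritic wild-type library is highest for the type I list in each class and for monocyte genes, and the isotype library is highest for heat-shock genes in each class.

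The monocyte-led cluster 15 (Plac8, Ly6c2, Ms4a4c, Il1rn, Thbs1, Chil3) held 59 isotype cells (1.94%, 1.48 to 2.5) and 325 wild-type cells (13.6%, 12.3 to 15.1). Among myeloid cells it was 9.88% (7.61 to 12.6) of the isotype and 32.1% (29.2 to 35.1) of the wild-type library. Because its leading genes also differed between the libraries, the cells were clustered again without the monocyte, interferon, tendon and cartilage lists. The cluster then held 51 isotype (1.68%, 1.25 to 2.2) and 319 wild-type cells (13.4%, 12 to 14.8), almost the same gap. The 4 other libraries had 0.204% to 1.03% of their cells in it. The macrophage cluster 4 (Ms4a7, Apoe, Trem2) took 66.5% of isotype (62.6 to 70.3) and 45.7% of wild-type myeloid cells (42.6 to 48.8). Over all cells the order was the reverse, at 13.1% (11.9 to 14.3) of isotype and 19.4% (17.8 to 21) of wild-type cells. Among myeloid cells the resident cluster 7 was close in both, at 9.21% (7.02 to 11.8) and 7.11% (5.61 to 8.88). So was the dendritic-like cluster 18, at 8.21% (6.13 to 10.7) and 11.7% (9.75 to 13.8). Over all cells both were lower in the isotype library. Cluster 7 was at 1.81% (1.37 to 2.35) and 3.02% (2.37 to 3.79), and cluster 18 at 1.61% (1.2 to 2.13) and 4.95% (4.11 to 5.9).

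Over all myeloid cells, 6 of 13 measured monocyte genes were at least 2-fold lower in the isotype library and none higher (median -0.71), where 3.85% of all myeloid genes were lower. Ly6c2, a surface marker of inflammatory monocytes, was at 94.7 CPM in isotype and 877 in wild-type cells (-3.21, -3.42 to -3.01). Plac8 was at 356 and 1795 CPM (-2.33, -2.44 to -2.23), Ms4a4c at 146 and 726 (-2.32, -2.49 to -2.15) and the clotting factor F10 at 16.1 and 65.0 (-2.00, -2.55 to -1.50). Ccr2, the receptor by which monocytes leave the marrow, was at 204 CPM in isotype and 334 in wild-type cells (-0.71, -0.87 to -0.55). Fn1, Vcan and Cx3cr1 were within 0.28 of 0 on the log2 scale. Inside the monocyte-led cluster the list was balanced, with 2 of 12 lower and a median of 0.03 (6.8% of all its genes lower), whereas inside the macrophage cluster 4 it was lower in 4 of 10 (median -0.79; 3.73%). With clusters given equal weight 2 of the members were 2-fold lower over myeloid cells.

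Lists of macrophage genes were split. Of 11 measured resident macrophage genes, 3 were at least 2-fold higher in isotype myeloid cells, where 3.74% of all genes were, and 1 was lower (median 0.91). The list summed to 2473 CPM in isotype and 1248 in wild-type myeloid cells, below the 2820 to 5780 of the other libraries. In fibroblasts it summed to more, 14278 CPM in isotype and 8854 in wild-type cells. The part of fibroblast RNA in the myeloid values was not tested. Trem2, a lipid receptor of macrophages and a leading gene of cluster 4, was at 897 CPM in isotype and 360 in wild-type cells (1.32, 1.21 to 1.42), and Gas6, a bridge to dying cells, at 139 and 64.0 (1.12, 0.86 to 1.38). Timd4, a receptor for dying cells, was at 6.79 and 54.2 CPM (-2.96, -3.84 to -2.26). Of 9 measured inflammatory macrophage genes 4 were 2-fold lower, where 3.85% of all myeloid genes were: Il1rn at 101 CPM in isotype and 372 in wild-type cells, Nlrp3 at 20.4 and 67.9, Cd14 at 352 and 933 and Il1b at 370 and 897. Tnf was at 41.2 and 48.7 CPM (-0.24, -0.63 to 0.14). MHC class II genes summed to 18189 CPM in isotype and 38165 in wild-type myeloid cells, with 3 of 7 lower. Its invariant chain Cd74 was at 8310 and 18105 CPM (-1.12, -1.15 to -1.10).

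Retnla, a marker of alternatively activated macrophages, had the highest ratio among the named myeloid genes with at least 200 UMIs, at 163 CPM in isotype and 1.63 in wild-type cells (384 and 5 UMIs; log2 ratio 6.51, 5.41 to 8.27). A few cells carried it: 10 of 597 isotype myeloid cells (1.68%) and 3 of 1012 wild-type ones (0.296%) held a Retnla UMI. The other 4 libraries were at 896 to 3269 CPM, so that both libraries were low and the wild-type one lowest. In T or NK cells Retnla had 0 isotype and 144 wild-type UMIs, the wild-type ones all in 1 of 73 cells.

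Myeloid and endothelial cells of the isotype library also held more RNA of fibroblast genes. The 7 fibroblast markers summed to 1381 CPM in isotype and 419 in wild-type myeloid cells and to 2401 and 621 in endothelial cells, with none at 0 in either library. Col1a1, a chain of type I collagen, had a UMI in 19.9% of isotype and 5.49% of wild-type myeloid cells after thinning, and Prg4, the lubricin of lining fibroblasts, was at 787 and 107 CPM there. Of 14 measured collagen and matrix genes in myeloid cells 12 were 2-fold higher in the isotype library (median 1.83), where 3.74% of all genes were. Of 13 in endothelial cells 9 were (median 1.70), where 2.49% of all genes were. In the fibroblasts themselves 1 of 18 was 2-fold higher, where 2.73% of all genes were. This was Col12a1, at 240 and 64.8 CPM. Rgs5, a mural gene, was higher in myeloid (21.7 and 0.653 CPM), endothelial (103 and 10.4) and fibroblast cells (64.8 and 15.6). Rgs5 is also among the leading genes of the lining-like fibroblast cluster 11, which held 13.1% of isotype and 5.32% of wild-type fibroblasts. The part of fibroblast-gene RNA in other differences was not tested.

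Tendon and cartilage genes were higher in isotype fibroblasts. Of 15 measured tendon genes 7 were at least 2-fold higher and none lower (median 0.81), where 2.73% of all fibroblast genes were 2-fold higher, and of 7 cartilage genes 4 were higher and none lower (median 1.84). Fmod, a proteoglycan that orders collagen fibrils, was at 551 CPM in isotype and 47.4 in wild-type fibroblasts (3.54, 3.38 to 3.70). Tnn, a tenascin, was at 122 CPM in isotype and 24.5 in wild-type fibroblasts (2.32, 2.10 to 2.55). The tenocyte marker Tnmd was at 141 and 42.9 CPM (1.72, 1.54 to 1.89), and the transcription factors of tendon, Scx and Mkx, were at 44.8 and 16.5 (1.44, 1.16 to 1.74) and at 7.32 and 1.83 (1.95, 1.17 to 2.95). The corneal and tendon proteoglycan Kera was at 102 and 40.9 CPM (1.32, 1.14 to 1.51) and Cilp2 at 29.0 and 10.3 (1.49, 1.14 to 1.87).

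Among cartilage genes Acan, the main proteoglycan of cartilage, was at 85.3 CPM in isotype and 11.1 in wild-type fibroblasts (2.93, 2.61 to 3.29). Col11a1, a minor fibrillar collagen of cartilage, was at 98.5 and 12 CPM (3.04, 2.73 to 3.38). Col11a2 and Col9a1 rested on 52 and 45 isotype UMIs and 5 wild-type UMIs each. Sox9, the transcription factor of chondrocytes, went the other way, at 52.5 and 62.2 CPM (-0.24, -0.41 to -0.07). Chad and Angptl7, which lead the tendon-like cluster, did too, at 16.1 and 23.1 CPM (-0.52, -0.81 to -0.23) and at 120 and 140 CPM (-0.23, -0.34 to -0.11).

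**Figure D5:**
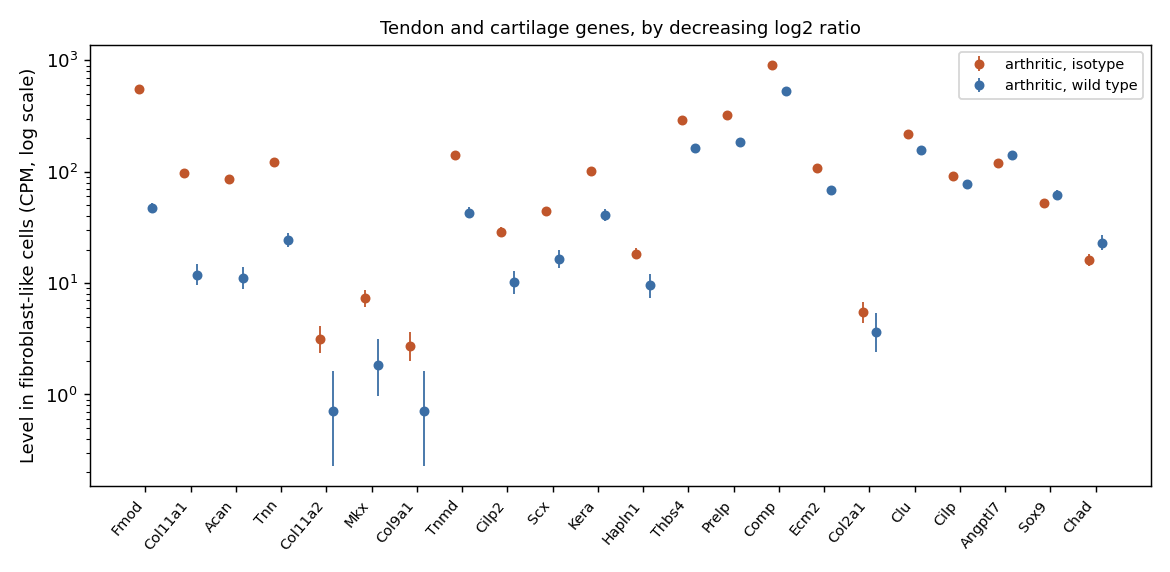
Levels in fibroblast-like cells (CPM, log scale) of tendon and cartilage genes in the isotype (left point) and wild-type (right point) libraries, ordered by decreasing log2 ratio, with exact Poisson 95% intervals, 1 library per group. Fmod, Col11a1 and Acan lead with 551 against 47.4, 98.5 against 12 and 85.3 against 11.1 CPM, and Chad, Sox9 and Angptl7 are lower in the isotype library.

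The tendon-like cluster 14 (Angptl7, Chad, Cytl1, Clu, Cilp2) was of similar size in both libraries, and the gap was as large without it. It held 34 isotype and 24 wild-type cells, 1.63% (1.13 to 2.27) and 2.28% (1.47 to 3.37) of fibroblasts, with overlapping intervals. With this cluster left out, 10 of 15 tendon genes were higher (median 1.38) and 4 of 5 cartilage genes (median 1.83), where 2.78% of all genes were higher and 3.17% lower. In the Cthrc1-led cluster 5 the counts were 8 of 15 (median 1.21) and 3 of 4 (median 2.04), where 4.87% of all its genes were higher. Fmod was detected in 39.2% (36.1 to 42.3) of isotype and 12.3% (7.77 to 18.2) of wild-type cells of that cluster after thinning, and Acan in 19.2% (16.7 to 21.8) and 4.68% (2.04 to 9.01). Without thinning these were 50.5% and 18.4% for Fmod and 38.9% and 14.4% for Acan. Fmod in myeloid cells, which should lack it, was detected in 1.69% of isotype and 0.152% of wild-type cells after thinning. The median depths were 7774 and 7335 UMIs in cluster 5 and 3553 and 2747 in myeloid cells.

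When the cells were clustered without the tested lists, a second tendon-led cluster separated, led by Fmod, Tnn, Cthrc1 and Acan. It held 605 isotype cells (19.9%, 18.5 to 21.4) and 49 wild-type cells (2.05%, 1.52 to 2.71), and the Chad-led cluster held 21 of each. The summed tendon list put the wild-type library, at 1533 CPM, below all others, and the isotype library, at 3064, inside their range, which reached 5139. For the cartilage list the isotype library, at 273 CPM, was above the other 5, of which the wild-type library was the highest at 108. Mstn, a growth factor of the TGF-beta family known as a brake on muscle, had the highest ratio among the named fibroblast genes with at least 200 UMIs, at 28.9 CPM in isotype and 1.41 in wild-type cells (4.29, 3.47 to 5.43), with at most 3.83 elsewhere.

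Heat-shock genes were higher in the isotype library in every class. Of 8 measured chaperone genes at least 2-fold higher ones numbered 6 in fibroblasts, 7 in myeloid, 7 in endothelial and 7 in T or NK cells (medians 1.38, 2.35, 1.62 and 3.29). Over all genes 2.73%, 3.74%, 2.49% and 4.45% were 2-fold higher in these classes. Hspa1a, the inducible Hsp70, was at 7165 CPM in isotype and 758 in wild-type myeloid cells (3.24, 3.18 to 3.30), at 1829 and 287 in fibroblasts (2.67, 2.61 to 2.74) and at 5874 and 784 in endothelial cells (2.91, 2.79 to 3.03). It was detected in 93.9% of isotype and 40.5% of wild-type myeloid cells after thinning. The constitutive relative Hspa8 was at 4124 and 3821 CPM in myeloid cells (0.11, 0.07 to 0.15). The summed list was above the other 5 libraries in each class: 16844 CPM in isotype and 5890 in wild-type myeloid cells, 8620 and 4360 in fibroblasts, and 19472 and 8321 in endothelial cells. The next highest was the anti-Notch3 library, at 8003, 5187 and 12842 CPM.

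Immediate-early genes, which are known to be induced during tissue dissociation, held no member that was 2-fold higher in the isotype library in any of 4 classes. Few genes of any kind were higher: 2.73% in fibroblasts, 3.74% in myeloid, 2.49% in endothelial and 4.45% in T or NK cells. In fibroblasts, of 14 measured members 4 were 2-fold lower in the isotype library and none higher (median -0.80), where 3.23% of all fibroblast genes were lower. Btg2 was at 222 CPM in isotype and 949 in wild-type cells (-2.10, -2.15 to -2.04), Nr4a1 at 182 and 575 and Fosb at 613 and 1491, while Jun was at 2162 and 2032. In myeloid cells 1 of 14 was lower, Fosb, at 259 and 618 CPM, where 3.85% of all genes were lower. In endothelial cells 2 of 14 were lower (1.54% of all genes) and in T or NK cells 2 of 12 (5.58% of all genes). The summed list put the isotype library below the other 5 in each of these classes: it was 14220 CPM in isotype and 21715 in wild-type fibroblasts, with up to 41263 elsewhere. These values stand beside the interferon and tendon differences, and their part in them was not tested.

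Neutrophil-attracting chemokines of fibroblasts were lower in the isotype library. All 4 measured members were at least 2-fold lower (median -1.27), where 3.23% of all fibroblast genes were, with Cxcl1 at 713 CPM in isotype and 1488 in wild-type fibroblasts (-1.06, -1.10 to -1.02) and Cxcl5 at 89.1 and 233 (-1.39, -1.49 to -1.29). The summed level of the 6-gene list, 845 CPM, was the lowest of all 6 libraries, and the wild-type library, at 1826, was the next lowest. Of 10 acute-phase genes 5 were lower and none higher (median -0.88): Saa3 at 661 and 1472 CPM (-1.16, -1.20 to -1.12), Slpi at 328 and 734, Lcn2 at 23 and 68.5, and S100a8 and S100a9. Lcn2, S100a8 and S100a9 are also made by neutrophils, whose markers summed to 6.04 CPM in isotype and 18.7 in wild-type fibroblasts, beside neutrophil shares of 0.296% and 3.65% of cells. The part of neutrophil RNA in these values was not tested. Of 6 measured monocyte-attracting chemokines 1 was lower, Cx3cl1, at 4.57 CPM in isotype and 10.4 in wild-type fibroblasts (list median -0.72). Hp was at 1115 and 974 CPM (0.20, 0.16 to 0.24). Within the Saa3-led cluster 8 the acute-phase list summed to 6636 CPM in isotype and 6375 in wild-type cells. In that cluster 2 of 8 acute-phase members and 2 of 4 neutrophil-attracting genes were 2-fold lower, where 2.56% of all its genes were. Il6 was at 59.4 and 106 CPM in fibroblasts (-0.83, -0.97 to -0.69) but at 154 and 75 in endothelial cells (1.03, 0.60 to 1.49).

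Sublining genes were split in fibroblasts: 4 of 15 were 2-fold lower in the isotype library and the median was 0.08. For this and the other fibroblast lists below, 3.23% of all fibroblast genes were 2-fold lower and 2.73% higher. Cxcl12, which retains leukocytes and plasma cells, was at 1438 CPM in isotype and 3342 in wild-type fibroblasts (-1.22, -1.24 to -1.19). Pi16 was at 177 and 535 CPM, Ccl11 at 15.7 and 49.5 and Cxcl13 at 6.46 and 17.2. Inside cluster 8 the same list was 7 of 11 higher (median 1.43), where 2.39% of its genes were higher. Of 12 lining genes 1 was higher and none lower (median 0.18). Genes of hypoxia and glycolysis were lower in 2 of 9 (Hk2 and Adm) and proliferation genes in 2 of 7 (Birc5 and Ube2c). Complement genes showed 0 of 11 in either direction. Of 5 measured Notch receptors, ligands and targets 2 were lower, Notch1 at 2.87 CPM in isotype and 6.33 in wild-type cells and Notch3 at 1.65 and 3.8. The Notch3 values rested on 27 UMIs in each library. Of 14 matrix-degrading and bone-resorption genes 1, Plau, was lower.

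Beyond the lists, 14 genes were at least 2-fold higher and 16 lower in fibroblasts, myeloid and endothelial cells alike, of 4263 genes measured in all 3. Among the 14 were Hspa1a, Hspa1b, Hsph1, Hspa4l, Hspb1 and Hspe1, together with Rgs5, Aspn, Cthrc1 and Swt1. Among the lower were Irf7, Socs1, Cebpb, Fosb and Cd14. In myeloid cells Rgs5 rested on 51 isotype and 2 wild-type UMIs, Aspn on 52 and 8 and Cthrc1 on 72 and 3. The part of fibroblast RNA in these myeloid values was not tested. The fibroblast genes with the highest ratios also included Ackr4, a scavenging chemokine receptor, at 37.9 CPM in isotype and 3.94 in wild-type cells, and Spon2 at 110 and 12.2. Those with the lowest included Cfd, the adipocyte product adipsin, at 0.366 and 32.3 CPM (6 and 230 UMIs), Chil1 at 9.45 and 85.1, Ccl5 at 9.51 and 79.5 and Serpina3n at 88.0 and 498. Msmp had 4 UMIs in isotype and 814 in wild-type fibroblasts (0.244 and 114 CPM) and at most 0.371 CPM in the other 4 libraries. In endothelial cells the lowest ratio among the named genes with at least 200 UMIs was that of Glycam1, a ligand of L-selectin, at 55.5 CPM in isotype and 237 in wild-type cells (-2.09, -2.54 to -1.67), and at 0 in the other 4 libraries.

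A few genes tracked the wild-type libraries rather than arthritis. This pattern was sought after the values had been seen. Over all cells 7 of 9279 genes were at 5 CPM or more in both wild-type libraries and at least 4-fold lower in each of the other 4. Ifi202b, an interferon-inducible DNA sensor of the Ifi200 cluster known to differ among inbred strains, had 1 UMI over all isotype cells and 567 over all wild-type cells (0.0486 and 48.0 CPM). The healthy wild-type library had 35.7 CPM and the remaining 3 libraries 0 to 0.0427. In fibroblasts Ifi202b had 0 isotype and 305 wild-type UMIs, at least 234.5-fold lower against a floor of 3 UMIs over the isotype fibroblasts. Hal, which breaks down histidine, was at 0.194 CPM in isotype and 17.3 in arthritic wild-type cells, with 71.3 in healthy wild-type cells and at most 0.428 elsewhere. The interferon-inducible Gbp2b had 0 isotype and 129 wild-type UMIs, and Eif3j2 was at 7.19 and 42.4 CPM. Of 8789 genes 1 had the opposite pattern, Rab6b, a transport GTPase, at 9.62 CPM in isotype and 0.338 in wild-type cells. As the labels name no strain, strain, treatment and batch cannot be told apart. Sex-linked genes were close, with Ddx3y at 67.8 CPM in isotype and 72.7 in wild-type fibroblasts (-0.10, -0.25 to 0.05).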

How the data were processed

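The deposited matrices hold UMI counts per gene and cell barcode, made by the authors with Cell Ranger 3.0.2 on mm10, per the submitters' processing notes. Every deposited barcode of the 2 libraries had at least 501 genes and at most 19.85% mitochondrial UMIs, so cells had been filtered before deposit. All 6 libraries were clustered together (scanpy 1.11.5, 2000 variable genes, 30 components, 20 neighbours, leidenalg 0.10.2 at resolution 1). Mitochondrial, ribosomal, haemoglobin, Notch, dissociation stress, sex-linked and Gm-numbered genes were kept out of the variable genes. Scrublet (expected rate 0.03) marked 14 of 5436 cells, 0.258%, which is under 0.5%, so doublets were in effect not removed; leaving out the top 3% of scores was an alternative. The 25 clusters were named "-like" from markers of 24 cell classes by a scoring rule chosen after the clusters had been seen. Dendritic-like clusters were pooled with myeloid cells and the tendon-led cluster with fibroblasts, and rebuilt names may differ from the study's.

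Counts were summed per library and class, for classes with at least 30 cells in both libraries, and scaled to CPM of the class total. Ratios had 0.5 UMI added and needed 50 UMIs over both libraries. Intervals are exact at 95%: Poisson for CPM, conditional binomial for ratios, Clopper-Pearson for shares. A floor of 3 counts bounded folds against 0. edgeR 4.0.16 (TMM) and DESeq2 1.42.0 (median of ratios) gave alternative scalings only; no model was fitted, since no group had a replicate. Named genes were the 10 highest and 10 lowest ratios per class with 200 UMIs and an interval past 2-fold, genes 2-fold apart in all 3 classes, and list members; genes in the wild-type pattern were chosen after their values were seen. The members, 29 gene lists and tests were chosen with earlier results of these data known. The code was tested on simulated data. Alternatives changed the mitochondrial maximum, doublet handling, clustering, UMI minimum, UMIs added, scaling, depth, fold and cluster weights. The values of 1 gene of these lists are not reported here.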

Additional observations from a re-analysis of the deposited data

Results flagged for a closer look

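Cxcl12, the chemokine that retains leukocytes in tissue, went in opposite directions in 2 cell classes. The log2 ratio of isotype over wild type was -1.22 in fibroblasts (1438 CPM in isotype and 3342 in wild-type cells) and 1.53 in myeloid cells (85.3 and 29.4 CPM). The difference between the classes was not tested. Beside the myeloid value, the summed fibroblast markers in myeloid cells were 1381 CPM in the isotype and 419 in the wild-type library, and their part in it was not tested.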

How the results depend on the processing

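With 1 library per group no replicate could be left out. No paired analysis was possible because each group has 1 library. Fewer UMIs required or a lower fold gave larger gene counts. The counts higher and lower were, at 20 UMIs, 490 and 572 in fibroblasts, 577 and 440 in myeloid and 372 and 223 in endothelial cells; at 200 UMIs 152 and 182, 74 and 133, and 23 and 17; at 1.5-fold 1015 and 871, 1033 and 732, and 490 and 332; at 4-fold 46 and 60, 27 and 57, and 21 and 7. The type I members lower in myeloid cells, 22 of 33 in the main run, numbered 12 of 19 measured at 200 UMIs and 9 of 33 with clusters weighted equally. In endothelial cells 2 of 20 became 1 of 5 at 200 UMIs. The type II members lower in fibroblasts numbered 5 of 17 with equal weights. In myeloid cells they numbered 3 of 15 with isotype cells thinned, 0 of 7 at 200 UMIs and 1 of 16 with equal weights. Monocyte genes lower in myeloid cells numbered 2 of 13 with equal weights. Equal weights also moved the type I myeloid median to -0.55 and the monocyte median to -0.14. Over the alternatives run, the type I median stayed below 0 in fibroblasts (-1.18 to -0.87), myeloid (-1.42 to -0.55) and endothelial cells (-0.50 to -0.17), the heat-shock median stayed at 1.28 or above in these classes, and the fibroblast medians ran from 0.71 to 1.38 for tendon and from 0.75 to 1.93 for cartilage genes. The monocyte-led share differed by -11.7 percentage points of all cells, -13.3 at a 5% mitochondrial maximum and -17.9 at Leiden resolution 0.5, where that cluster merged with cluster 4. The tendon-led share differed by 0.11 points, but by 15.3 without a mitochondrial maximum, 18.2 at resolution 2, 10.7 with only the 2 libraries clustered and 17.7 without the tested lists, where an Fmod-led cluster separated. The percentage of genes apart for Notch3-/- over wild type, divided by that for isotype over wild type, was 1.61 in myeloid cells and 2.77 at 4-fold; in endothelial cells it was 4.47, and 2.73 at 20 UMIs, 7.11 at 200 UMIs, 2.27 at 1.5-fold and 7.12 at 4-fold. For anti-Notch3 over isotype, divided likewise, the endothelial value was 2.84, and 1.81 at 1.5-fold. The endothelial median of inflammatory macrophage genes was -1.31 over 4 measured genes and 1.10 over 3 without a mitochondrial maximum, where the classes were clustered anew; the cause was not tested. TMM scaling shifted every log2 ratio by -0.10 in fibroblasts. The alternatives on doublet scores and on clustering without the tested lists were chosen after seeing the data.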
